A study of Mus musculus with 6 samples.

Results

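DEAD-box and DEAH-box RNA helicases were examined in B cells from mouse lung, as the genes named Ddx or Dhx with a number in the deposited table. The symbol pattern matched 54 genes, of which Ddx58, Dhx58, Ddx3x and Ddx3y were left out by the rule, and 50 of the 22481 genes in the table remained. They comprised 35 Ddx and 15 Dhx genes. B cells had been enriched from lung with magnetic beads, from C57BL/6 mice aged 3 months, and gave 3 wild type (WT) and 3 5xFAD libraries of total RNA depleted of ribosomal RNA. 5xFAD animals carry human transgenes with mutations of familial Alzheimer's disease under the Thy1 promoter, which is used to drive expression in neurons, and they serve as a model of amyloid deposition in brain. The comparison asks how the transcripts of these helicases in lung B cells differ between the genotypes. No label states that the samples were separate animals, so p-values measure only the spread between these libraries, which may be technical.

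These helicases use ATP to open short RNA duplexes or to strip proteins from RNA. DEAD-box enzymes clamp and bend a duplex locally, whereas DEAH-box enzymes pull on a single strand from one side, often with the help of a G-patch protein. Between them they act at most steps in the life of an RNA, from transcription and splicing through export, translation and decay, and many are needed to build ribosomes. In B cells these steps carry the growth that accompanies activation. Both families take their name from motif II, a run of 4 amino acids that binds the magnesium and ATP.

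Motif II is the feature that names the families, so the coding sequence around it was read from the GENCODE M21 transcripts on GRCm38. The letters DEAD were encoded by 27 of the 50 genes and DEAH by 9. The variants were DEVH in 5 genes (Ddx60, Dhx29, Dhx30, Dhx34 and Dhx57), DEVD in 3 (Ddx21, Ddx28 and Ddx50), DECD in 2 (Ddx39 and Ddx39b), DEIH in 2 (Dhx9 and Dhx36) and DESD in Ddx52. Dhx32 had no match to the searched letters. The only match of Ddx26b, a gene related to an Integrator subunit, began at codon 596. It is counted among the 27, but a match of letters there does not show a motif II. The 42 bases shown for 8 genes on which the results turn lie in 1 exon each, with the 12 bases of motif II in capitals.
Ddx5, DEAD, chr11:106785178-106785219, minus strand, exon 7: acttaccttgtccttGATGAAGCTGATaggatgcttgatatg
Ddx17, DEAD, chr15:79538860-79538901, minus strand, exon 7: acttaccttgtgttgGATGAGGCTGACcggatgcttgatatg
Dhx9, DEIH, chr1:153468874-153468915, minus strand, exon 14: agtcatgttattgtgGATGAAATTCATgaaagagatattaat
Dhx15, DEAH, chr5:52171481-52171522, minus strand, exon 4: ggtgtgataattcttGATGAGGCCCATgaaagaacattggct
Ddx39b, DECD, chr17:35247075-35247116, plus strand, exon 5: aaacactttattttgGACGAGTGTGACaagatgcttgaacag
Ddx19a, DEAD, chr8:110979071-110979112, minus strand, exon 8: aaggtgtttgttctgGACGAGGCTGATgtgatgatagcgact
Ddx19b, DEAD, chr8:111011320-111011361, minus strand, exon 8: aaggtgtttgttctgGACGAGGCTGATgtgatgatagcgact
Ddx21, DEVD, chr10:62591866-62591907, minus strand, exon 6: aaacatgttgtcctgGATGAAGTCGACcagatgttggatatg
The stretches of Ddx19a and Ddx19b were identical. Of all 50-base words in their coding sequences, 48.7% of those of Ddx19a and 47.1% of those of Ddx19b also occurred in the other gene. Ddx18 shared 71.7% of such words with other genes, most with the processed pseudogene Gm16433, and Ddx5 shared 44.4%, most with the processed pseudogene Gm12183. Ddx50 shared 19.9% and Ddx6 19.2%, so reads of these 6 genes could be assigned to another copy and their values are uncertain to that extent. The estimated counts of the 6 were whole reads in every library, except for Ddx5 in 1 library.

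The libraries were shallow. Estimated counts over all listed genes summed to between 628581 and 782297, and Lars2 alone held 37.5% to 45.7% of them. One count therefore stood for 1.28 to 1.59 CPM (counts scaled to library size). Helicases with at least 0.5 counts numbered 43, 47 and 37 in WT replicates 1, 2 and 3 and 44, 45 and 44 in 5xFAD replicates 1, 2 and 3. The filter of a mean of at least 1 FPKM (fragments normalised for gene length and library size) was passed by 9651 genes, 43 helicases among them. The 12 B cell markers checked were all detected, with summed levels of 342 to 431 FPKM in WT and 456 to 814 FPKM in 5xFAD, and all 12 had a higher mean in 5xFAD. Summed endothelial markers were 470 to 580 FPKM in WT and 390 to 486 FPKM in 5xFAD, with 10 of 11 lower in the mean. Summed T cell markers ran from 1.84 to 7.86 FPKM in WT and from 14.1 to 28.0 FPKM in 5xFAD, with 4 of 6 higher in the mean. Monocyte and macrophage markers (207 to 350 against 186 to 479 FPKM), neutrophil markers (194 to 500 against 244 to 548 FPKM, Ly6g listed at 0 throughout), epithelial markers (179 to 386 against 174 to 231 FPKM), fibroblast and smooth muscle markers (27.1 to 52.4 against 38.8 to 121 FPKM) and NK cell markers (8.94 to 15.9 against 4.38 to 17.0 FPKM) overlapped between WT and 5xFAD. Their part in the helicase values below was not tested, and in bulk RNA a smaller number of cells of a type and less RNA per cell cannot be told apart.

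Across genotypes, Dhx15 was the single helicase called in the test over all genes, higher in 5xFAD, and its value rested on 2 libraries. Dhx9, Ddx19b and Ddx39b had a lower CPM in all 3 5xFAD libraries than in any WT library, without passing the adjusted threshold. The most abundant helicase, Ddx5, did not separate the genotypes. By edgeR's quasi-likelihood test with Benjamini-Hochberg adjustment, 1 of 43 helicases (2.33%) was called higher at an adjusted p under 0.05, against 0.104% of all genes tested, and 0 were called lower, against 0.0104%. Before adjustment 1 helicase (2.33%) was higher at p under 0.05, against 8.46% of all genes, and 3 (6.98%) were lower, against 3.55%. On CPM the 3 libraries of each genotype did not overlap for 4 helicases higher in 5xFAD (Ddx47, Dhx34, Ddx60 and Ddx17), which is 9.3% against 12.3% of all genes. They did not overlap for 4 lower in 5xFAD (Dhx9, Ddx19b, Ddx39b and Dhx37), which is 9.3% against 5.44%. On FPKM the helicases without overlap were 8 higher in 5xFAD (Ddx21, Ddx24, Ddx27, Ddx49, Ddx17, Dhx8, Dhx34 and Dhx35; 18.6% against 13% of all genes) and 3 lower (Dhx9, Ddx19b and Dhx37; 6.98% against 4.42%). The median fitted log2 fold change was 0.37 over the 43 helicases and 0.11 over all genes, with 26 helicases (60.5%) and 54.1% of all genes fitted higher. Dhx15, Dhx34, Dhx35 and Ddx52 had a mean under 1 FPKM in WT, and Ddx19b in 5xFAD, so these 5 passed the filter only through the genotype in which they were higher. Without WT replicate 3 the median was 0.11 over the helicases and 0.021 over all genes tested. Without 5xFAD replicate 1 it was 0.090 over the helicases and 0.018 over all genes tested.

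**Figure D1:**
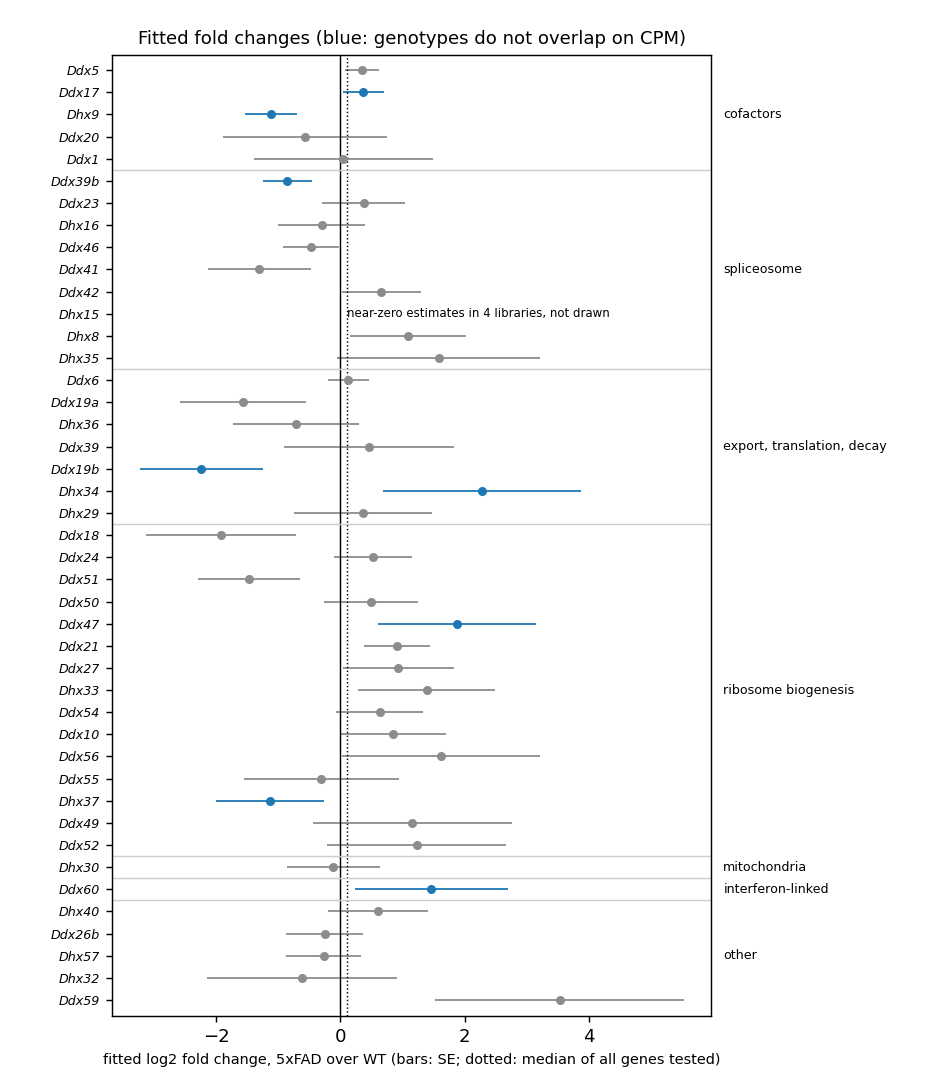
Fitted log2 fold change of 5xFAD over WT with its standard error for the helicases that passed the filter, grouped by role, with genes whose genotypes do not overlap on CPM in blue. Dhx9, Ddx39b, Ddx19b and Dhx37 lie left of 0 in blue, and Ddx47, Dhx34, Ddx60 and Ddx17 lie right of 0 in blue. The dotted line marks the median of all genes at 0.11, and Dhx15 is not drawn because 4 libraries hold near-zero estimates.

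The transcription and RNA processing cofactors held the most abundant helicase. Ddx5, a coregulator of transcription that also works in splicing and with the microprocessor in microRNA maturation, stood at 172, 142 and 212 FPKM in WT and 253, 220 and 172 FPKM in 5xFAD. It made up 31.3% to 44.5% of the summed helicase FPKM of a library. The third 5xFAD library lay at the level of the first WT library, and the genotypes overlapped. In estimated counts Ddx5 stood at 687, 792 and 817 in WT and 1210, 1168 and 790 in 5xFAD, a fitted log2 fold change of 0.35 (SE 0.28) with an adjusted p of 0.687 by edgeR's quasi-likelihood test.

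Ddx17, the close relative of Ddx5, was at 24.0, 23.2 and 14.0 FPKM in WT and 27.2, 31.1 and 26.7 FPKM in 5xFAD. All 3 5xFAD libraries lay above the WT libraries, by the widest margin over WT replicate 3. The edgeR fit gave a log2 fold change of 0.37 (SE 0.33, adjusted p = 0.732). The table lists Ddx17 on a locus of 21 genes, although its own values were whole reads in all 6 libraries, and with the counts of the locus summed the log2 fold change was -0.03.

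Dhx9, an RNA helicase with double-stranded RNA-binding domains that bridges transcription factors and RNA polymerase II, lay lower in 5xFAD. Its estimated counts were 134, 121 and 128 in WT and 48.3, 81.1 and 67.4 in 5xFAD, and its levels were 14.7, 13.2 and 14.0 FPKM against 5.30, 8.91 and 7.40 FPKM. The WT libraries were close to each other and the highest 5xFAD library stayed under the lowest WT library. By edgeR's quasi-likelihood test the log2 fold change was -1.12 (SE 0.42, adjusted p = 0.306). It ran from -1.27 to -1.03 when any 1 library was left out, with an unadjusted p under 0.05 in all 6 fits. FPKM per count of Dhx9 was almost the same in every library and its locus holds no other gene, but its values were not whole numbers of reads in 5 libraries, the most of any helicase. In limma on log2(FPKM + 1) Dhx9 was not at an unadjusted p under 0.05, and its adjusted p there was 0.553. Ddx20, the SMN complex helicase also called Gemin3, and Ddx1, which takes part in tRNA ligation, were low, at most 4.26 and 3.34 FPKM, and both overlapped between genotypes.

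**Figure D2:**
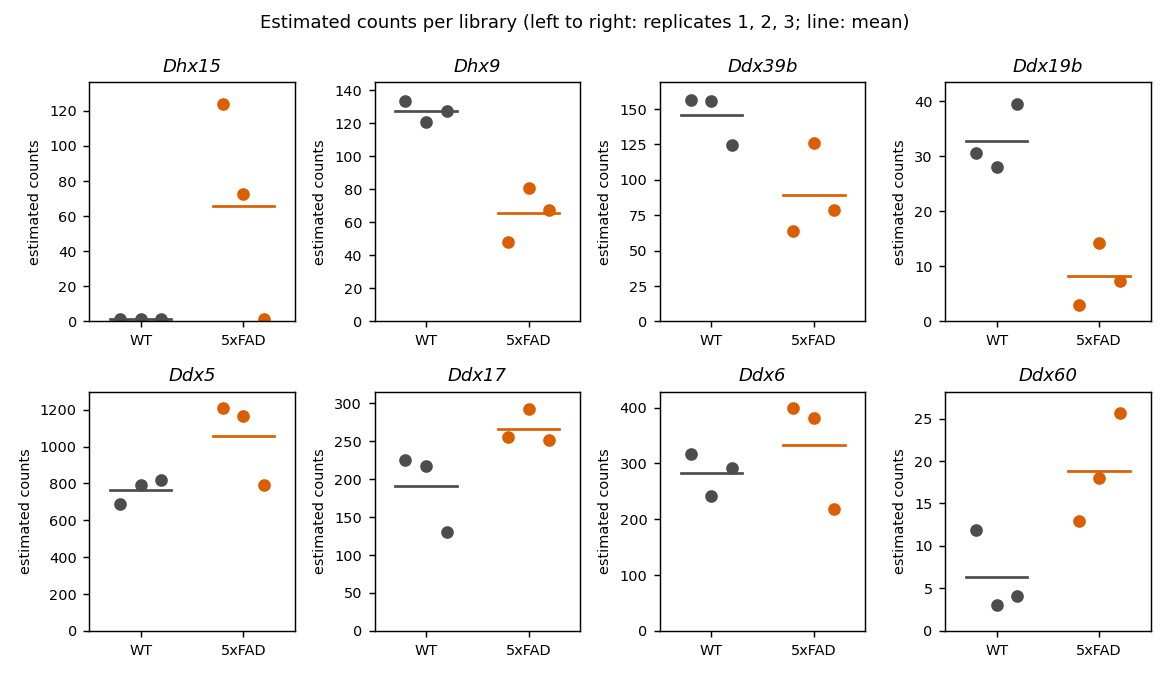
Estimated counts of 8 helicases in each library, with WT in grey, 5xFAD in orange and a line at each genotype mean. Dhx15 is near 0 in 4 libraries and reaches 124 and 72.8 in 5xFAD replicates 1 and 2. Dhx9 and Ddx19b (lower in 5xFAD) and Ddx17 and Ddx60 (higher) show no overlap, while Ddx5 and Ddx6 do.

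Among the spliceosomal helicases, which remodel the spliceosome from assembly to disassembly, 9 of 10 passed the filter, 5 fitted higher and 4 lower in 5xFAD, with a median log2 fold change of 0.38. With 1 library left out that median ran from -0.15 to 0.54, so its sign was not stable. Dhx15, the DEAH-box helicase that takes apart spent spliceosomes with its G-patch partner Tfip11, had estimated counts of 1.30, 1.31 and 1.40 in WT and 124, 72.8 and 1.20 in 5xFAD. The corresponding levels were 0.22, 0.22 and 0.24 FPKM in WT and 21.2, 12.5 and 0.21 FPKM in 5xFAD. The libraries of 5xFAD replicates 1 and 2 thus stood far above the rest, and 5xFAD replicate 3 lay at the WT level, so the genotypes overlapped.

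EdgeR's quasi-likelihood test gave Dhx15 an adjusted p of 0.0478. In steps of 1 read, the values in the other 4 libraries were between 1.30 and 1.34, almost the same part of a read in each and not a whole number of reads. No fold change is given, because it would rest on these values. Of all 9651 genes tested, 4 had values above 0, under 2 reads and not whole in at least 4 libraries, whether alike or not. The call was lost without WT replicate 2 (adjusted p = 0.402 by edgeR) and without 5xFAD replicate 1 (adjusted p = 0.832). It was also lost with DESeq2 size factors, limma on FPKM, a filter at 5 FPKM and counts summed by locus. Dhx15 is alone on its locus, so in the locus sums only the fit around it changed. The call stayed in the DESeq2 Wald test (adjusted p = 0.00325), without a filter, with a replicate block and in the other fits without 1 library. Those fits used the same near-zero values. Dhx38, the DEAH-box helicase of the second catalytic step of splicing, held 33.1 counts in WT replicate 2 and between 0.02 and 0.52 counts elsewhere, and did not pass the filter.

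Ddx39b, known as UAP56, a DECD-box protein of early spliceosome assembly and of the TREX export complex, was lower on average in 5xFAD. It had 156, 156 and 125 estimated counts across the WT libraries and 63.8, 126 and 78.9 in 5xFAD. The highest 5xFAD library and the lowest WT library were almost level in counts, and the genotypes did not overlap on CPM. In FPKM the values were 56.6, 45.9 and 34.7 against 19.8, 38.0 and 24.4, and there the genotypes overlapped. The edgeR log2 fold change was -0.85 (SE 0.40, adjusted p = 0.395). Ddx39b had an unadjusted p under 0.05 in 2 of 6 edgeR fits with 1 library left out. In limma on log2(FPKM + 1) it was not at that threshold. Its locus holds 6 genes, the others being H2-D1, H2-Q1, H2-Q2, H2-Q4 and H2-Q6. With the counts of all 6 summed the log2 fold change was 0.44, a value of the whole locus and not of Ddx39b. The values of Ddx39b itself were whole reads in all 6 libraries.

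Ddx23, the U5 snRNP helicase, stood at 3.03, 16.4 and 39.2 FPKM in WT and 12.4, 21 and 6.32 FPKM in 5xFAD. Dhx16, which acts on the spliceosome before the first step, stood at 7.45, 9.06 and 30.9 FPKM in WT and 5.64, 17.7 and 2.59 FPKM in 5xFAD. WT replicate 3 was the highest library for both, and the genotypes overlapped. Ddx46 (3.75 to 11.2 FPKM), which acts in branch site recognition, Ddx41 (1.75 to 13.4 FPKM), Ddx42 (2.01 to 12.3 FPKM), Dhx8 (0.30 to 7.93 FPKM), which releases the spliced RNA, and Dhx35 (0 to 8.71 FPKM) gave adjusted p-values of 0.578 to 0.774 by edgeR.

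The helicases of export, translation and decay included the pair of nuclear pore helicases Ddx19a and Ddx19b, which release proteins from exported RNA. Ddx19b had 30.6, 28.1 and 39.5 estimated counts across the WT libraries and 2.99, 14.2 and 7.34 in 5xFAD, and 4.76, 3.83 and 3.00 FPKM against 0.33, 1.08 and 0.61 FPKM. Every 5xFAD library lay under every WT library. By edgeR's quasi-likelihood test the log2 fold change was -2.24 (SE 0.99, adjusted p = 0.363). It had an unadjusted p under 0.05 in 3 of 6 fits with 1 library left out. In WT the estimated counts of Ddx19a, the copy that shares sequence with it, were 13.8, 27.1 and 43.7, and in 5xFAD they were 2.99, 19.9 and 11, with overlapping genotypes and a log2 fold change of -1.57 (SE 1.01).

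Ddx6, which represses translation and activates decapping in processing bodies, was the most abundant helicase of the group. It stood at 26.3, 20.0 and 24.2 FPKM in WT and 33.1, 31.7 and 18.1 FPKM in 5xFAD. Replicates 1 and 2 of 5xFAD were the highest libraries and replicate 3 the lowest, and the edgeR log2 fold change was 0.13 (SE 0.33, adjusted p = 0.930). Dhx34, a factor in nonsense-mediated decay, had 2.97, 2.01 and 1.04 counts across the WT libraries and 4.99, 25.5 and 4.12 in 5xFAD, all above WT but mostly a handful of reads. Dhx36, which unwinds G-quadruplexes, ranged from 0.70 to 13.4 FPKM, Ddx39 from 0 to 8.94 FPKM and Dhx29, a helper of translation initiation, from 0.24 to 3.57 FPKM, each with overlapping genotypes.

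Ribosome biogenesis was the largest group, with 16 genes, of which 15 passed the filter. Fitted values were higher in 5xFAD for 11 and lower for 4, where 54.1% of all genes tested were fitted higher. The median log2 fold change was 0.84, against 0.11 over all genes. It ran from 0.29 to 0.90 when any 1 library was left out, and the median of all genes from -0.05 to 0.22. Among 37 tested genes of a fixed list of ribosome biogenesis partners, 20 were fitted higher and 17 lower, with a median of 0.03. None of the 15 helicases was at an unadjusted p under 0.05 in edgeR's test, against 8.46% of all genes higher and 3.55% lower. Summed over the group, levels were 71.7, 81.5 and 70.7 FPKM in WT and 99.9, 111 and 80.6 FPKM in 5xFAD. The sum of 5xFAD replicate 3 lay just under that of WT replicate 2, so the sums overlapped.

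Ddx21, the nucleolar helicase that links RNA polymerase I transcription to rRNA processing, had 37.6, 68.3 and 23.9 counts across the WT libraries and 81.8, 72.8 and 106 in 5xFAD. All 5xFAD libraries lay above WT in FPKM (2.56 to 7.29 against 7.78 to 11.4) but not on CPM, and in the edgeR fit the log2 fold change was 0.91 (SE 0.53, adjusted p = 0.524). Ddx21 and its paralog Ddx50 are listed on 1 locus of 18 genes, and with its counts summed the log2 fold change was 0.20. Ddx50 itself ranged from 2.15 to 15.2 FPKM with overlapping genotypes.

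Ddx47, a factor of the small subunit processome, had 1.98, 16.1 and 0 counts across the WT libraries and 22.9, 29.3 and 20.2 in 5xFAD. The 5xFAD libraries were alike and WT replicate 2 was closest to them, but in FPKM that WT library was the highest of all at 17.4. Dhx37, whose yeast counterpart releases U3 snoRNA from the pre-ribosome, had 39.5, 21.1 and 37.4 counts across the WT libraries and 19.9, 17.0 and 11 in 5xFAD, with a log2 fold change of -1.13 (SE 0.87). Ddx18, whose yeast counterpart Has1 acts in both subunits, had the highest mean of the group over all 6 libraries, though not over the 5xFAD libraries, at 12.9, 6.15 and 30.7 FPKM in WT and 0, 14.4 and 1.49 FPKM in 5xFAD. It overlapped between genotypes, and its reads can be confused with those of Gm16433.

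The other members of the group were Ddx24 (2.82 to 11.1 FPKM), Ddx51 (2.21 to 14.3), Ddx27 (0.38 to 15.3), Dhx33 (0.40 to 16.2), Ddx54 (2.05 to 7.36), Ddx10 (2.41 to 10.5), Ddx56 (0 to 7.21), Ddx55 (1.01 to 11), Ddx49 (0 to 8.20) and Ddx52 (0 to 2.95). All 10 had overlapping genotypes on CPM. On FPKM, in contrast, Ddx24, Ddx27 and Ddx49 did not overlap and were higher in 5xFAD.

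**Figure D3:**
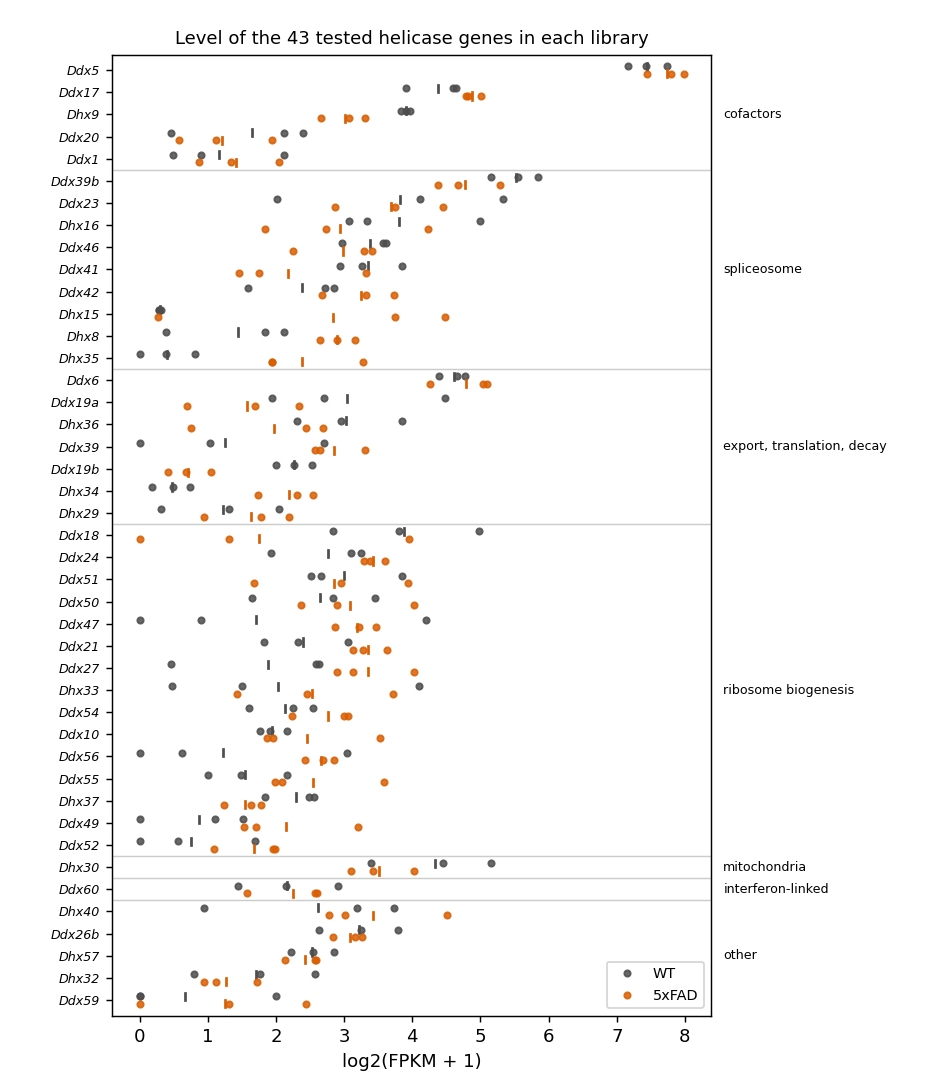
Level of each of the 43 helicases that passed the filter, as log2(FPKM + 1) in each library (points) with genotype means (ticks), by role and ordered by mean within a role. Ddx5 stands far above all others, and for most genes the WT points in grey and the 5xFAD points in orange overlap.

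Dhx30, which assembles the mitochondrial ribosome, was at 20.9, 9.55 and 34.4 FPKM in WT and 15.3, 7.57 and 9.78 FPKM in 5xFAD. Its counts were 50.4, 22.1 and 23.9 against 19.0, 52.0 and 27.5. The genotypes overlapped on both scales, and the order of the libraries differed between them. Ddx60, an interferon-induced helicase linked to antiviral RNA sensing, had 11.9, 3.01 and 4.16 counts across the WT libraries and 13.0, 18.0 and 25.7 in 5xFAD. The count in every 5xFAD library exceeded that in every WT library, whereas in FPKM the highest library was WT replicate 3 at 6.51. The edgeR log2 fold change was 1.46 (SE 1.23, adjusted p = 0.710).

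The remaining members with no firm role in the groups above were Dhx40 (0.93 to 21.7 FPKM), Ddx26b (5.19 to 12.8), Dhx57 (3.40 to 6.20), Dhx32 (0.74 to 4.93) and Ddx59 (0 to 4.42), and all overlapped between genotypes. Of the 7 helicases under the filter, the germ cell genes Ddx4, Ddx25 and Ddx43 were listed at 0 in every library. Ddx4 encodes the germ cell marker Vasa. The DNA helicase Ddx11 reached 2.32 FPKM in 5xFAD replicate 2, Ddx31 2.98 FPKM and the mitochondrial Ddx28 1.88 FPKM in the same library, and Dhx38 4.02 FPKM in WT replicate 2.

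Counts and FPKM did not track each other for many helicases. Of the 47 with a value in at least 2 libraries, 23 differed more than 2-fold between libraries in FPKM per count. This was not counted over all genes, so it is not shown to be particular to helicases. The factor between libraries was 10.2 for Ddx60, 9.90 for Dhx30, 8.34 for Dhx33, 5.57 for Dhx16 and 3.68 for Ddx23. Dhx9, Ddx17 and Ddx6 showed almost no such spread. The sign of the difference between genotypes was opposite on the 2 scales for 2 helicases (4.65%), Ddx23 and Ddx55, against 15.7% of all genes. Ddx23 had a log2 fold change of 0.38 from counts and a difference in mean log2(FPKM + 1) of -0.13.

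**Figure D4:**
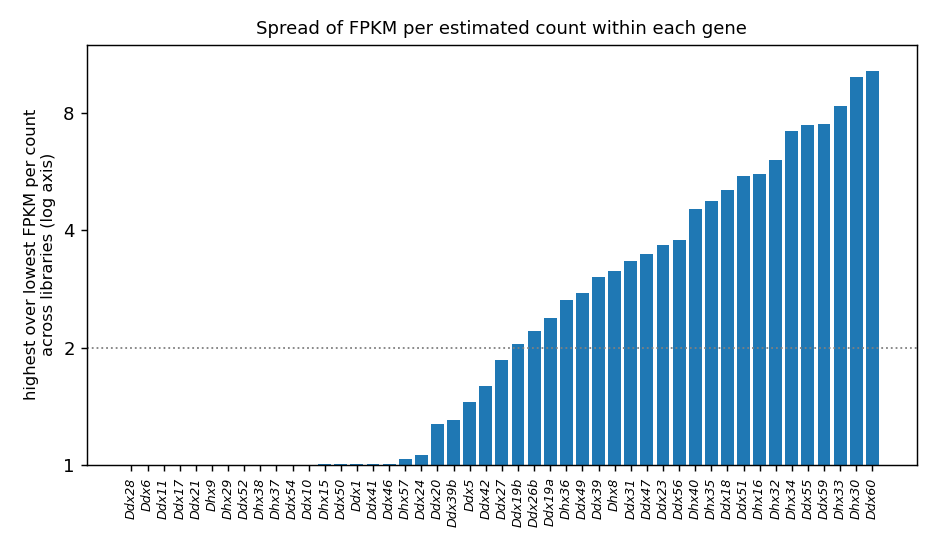
Highest over lowest FPKM per estimated count across libraries for each helicase with values in at least 2 libraries, on a log axis. The bars of 23 genes pass the dotted line at 2-fold, up to 10.2 for Ddx60.

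Genes that work with the helicases were read from fixed lists, 163 genes in all, of which 150 were tested. By edgeR's quasi-likelihood test 9 (6%) were higher and 2 (1.33%) lower in 5xFAD at an unadjusted p under 0.05, against 8.46% and 3.55% of all genes, and 0 passed after adjustment, with a median log2 fold change of 0.10. Of the 9 higher, 7 had a WT mean under 1 FPKM and so could be tested only because they were high in 5xFAD, and Alyref2, 1 of the 2 lower, had a 5xFAD mean under 1 FPKM. Upf1, the helicase of nonsense-mediated decay, had 60.3, 28.1 and 35.4 counts across the WT libraries and 247, 65.3 and 55.0 in 5xFAD, with 5xFAD replicate 1 far above the others. Its edgeR log2 fold change was 1.58 (SE 0.57, adjusted p = 0.291). Ubtf, an activator of RNA polymerase I, had 95.9, 106 and 105 counts across the WT libraries and 27.9, 70.9 and 70.6 in 5xFAD.

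The export partners of Ddx39b and Ddx39 included Nxt1 and Thoc7, both at 2.58 to 8.51 counts in the 5xFAD libraries and listed at 0 in each WT library, and Alyref2, which had 0, 11 and 50.9 counts across the WT libraries and 2.99, 0 and 2.75 in 5xFAD. The others at that threshold were Eif4ebp1, Ints2, Wdr12, Bop1, Wdr46 and Cwc27, each higher in 5xFAD, and all but Ints2 with 29.9 counts or fewer in any library. No member of the lists of decapping, microprocessor, SMN complex or nuclear pore partners was at that threshold. The DEAD-box translation factor Eif4a2 had 177, 249 and 116 counts across the WT libraries and 230, 265 and 168 in 5xFAD, and Snrnp200, the U5 helicase of the Ski2-like family, had 150, 143 and 97.7 against 116, 140 and 123. Both overlapped between genotypes.

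The RefSeq promoters on GRCm38.p6, from 250 bases before to 50 after each start, were available for 44 of the 50 helicases, with 55 promoters. Their median GC content was 60.7%, against 61.0% for the tested genes. The letters CCGGAAG, searched on both strands, were present in 38.2% of the helicase promoters and in 17.9% of those of the tested genes. GGGCGG was present in 58.2% against 63.2%, CCAAT in 47.3% against 36.9%, CACGTG in 12.7% against 9.81% and TATAAA in 9.09% against 7.15%. These are matches of letters and not binding sites.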

How the data were processed

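Total RNA of lung B cells, 3 WT and 3 5xFAD, was depleted of rRNA and made into stranded libraries, per the labels' protocols. Tools named in the submitters' processing notes are Cuffdiff, Cufflinks, HISAT2 2.0.4 and cutadapt 1.9.3, and the builds are GRCm38 and mm10. Which annotation was counted is not given in the sources. The deposited table gives FPKM and count values per gene and library, per the file headers. The authors' count columns were read as estimated counts, because many are not whole; in a library 94.0% to 97.3% of values were whole multiples of a step of 0.917 to 1.04, within 0.05.

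Rows sharing a symbol (162 rows, 79 symbols) were summed. Estimated counts were rounded and tested with edgeR 4.0.16 in R 4.3.3 (quasi-likelihood test, TMM factors, trended dispersion, Benjamini-Hochberg) over the 9651 genes that averaged at least 1 FPKM; the biological coefficient of variation was 0.752. Standard errors were the size of the log2 fold change divided by the root of F. The test was tried on simulated counts with known changes, drawn from its own fitted dispersion. Those counts were whole and held no near-zero parts of a read, so they do not bear on the Dhx15 call. Alternatives used limma 3.58.1, DESeq2 1.42.0, other filters, a replicate block and locus sums. Genotypes were taken from the titles. Named helicases were those past the threshold, those at an unadjusted p under 0.05 and the 8 of highest mean FPKM; others shown in full were chosen after their values were seen. The helicases, their roles and the lists were chosen with earlier results of these data known. Exact permutation of 3 against 3 samples cannot go below 0.1. Motif II was searched in coding sequences as DE, 1 of A, C, I, L, S or V, then D or H, after 3 hydrophobic residues, and was read from GENCODE M21. The table of protein sequences was not used here.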

Additional observations from a re-analysis of the deposited data

How the results depend on the processing

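Of the 11 named helicases, none called changed sign. Uncalled, Ddx23, Dhx30 and Ddx6 changed sign without 1 library, and Ddx23 also in limma. The summed loci of Ddx17, Ddx39b and Dhx30, which include other genes, had the opposite sign to the helicase alone. Dhx15 alone was called in the main test, and the number of called helicases was 0 with DESeq2 size factors, with limma on log2(FPKM + 1) and on log2(FPKM + 0.1), with a mean of at least 5 FPKM, and with genes on a shared locus summed (adjusted p for Dhx15 0.0679, 0.347, 0.437, 0.0839 and 0.0857); the cause was not tested. With 1 library left out it was 0 to 1. Over all genes the 11 calls became 7 with DESeq2 size factors, 63 with the DESeq2 Wald test, 0 with either limma fit, 62 without a filter, 5 at 5 FPKM, and 1 to 75 with 1 library left out. At 5 FPKM, where fewer genes are tested, 286 genes were higher and 184 lower at an unadjusted p under 0.05. The limma fits gave 3 and 2 of 43 helicases higher at that threshold with pseudocounts of 1 and 0.1, against 887 and 874 of 9651 genes. Lower were 2 and 1 helicases, against 261 and 244 genes. With 1 library left out, 42 to 44 helicases and 9438 to 9757 genes were tested. Helicases higher at that threshold then numbered 1 to 3 and lower 1 to 3. Genes higher numbered 372 to 952 and lower 191 to 542. The median log2 fold change of the helicases ran from 0.090 to 0.45 with 1 library left out, and that of all genes from -0.05 to 0.22. Helicases without overlap numbered 8 higher on FPKM in place of CPM, and with 1 library left out 5 to 9 higher (11.6% to 20.9%, against 16% to 21% of all genes) and 4 to 8 lower (9.3% to 18.6%, against 6.88% to 13.3%); fewer libraries separate more often. The summed helicase level, a log2 ratio of 0.10, was -0.02 without Ddx5 and ran from -0.00 to 0.24 with 1 library left out. Same-numbered replicates deviated from their genotype means with correlations of 0.010, 0.022 and -0.016. Differently numbered ones had correlations from -0.034 to 0.019. In libraries this shallow a shared batch might not show, so whether the numbers mark pairs was not settled. With the replicate block 26 genes were called, 214 were lower at an unadjusted p under 0.05, and Dhx15 was still the only helicase called. Leaving out Lars2, and summing shared loci, were chosen after seeing the data.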
